A study of Mus musculus with 6 samples.

Results

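Water and sodium leave the colonic lumen through a small set of membrane proteins, and 9 genes of that set were followed here in mouse intestinal epithelial cells (IECs). They were the water channels Aqp1, Aqp4 and Aqp8, the epithelial sodium channel subunits Scnn1a, Scnn1b and Scnn1g, the sodium/proton exchangers Slc9a2 and Slc9a3, and the kinase gene Sgk1. Members were taken by gene symbol, and each of the 9 was found among the 55487 genes listed in the deposited count table. The study asked how loss of the histone methyltransferase gene Nsd2 from the intestinal epithelium alters colitis, and RNA-seq was made from IECs shaken off the colon with EDTA, without a sort. All mice were on a C57BL/6J background and had received dextran sodium sulphate (DSS), an agent that damages colonic epithelium. The methods give 2% DSS and an age of 2 months for the induction of colitis, and the labels of these libraries give only DSS. The 3 control libraries came from Nsd2 f/f mice (labelled WT), which carry floxed Nsd2 alleles and no Cre. The 3 other libraries came from Nsd2 Vil-KO mice, in which Villin-Cre removes floxed Nsd2 from intestinal epithelium only, so that other cell types in a preparation would keep the gene. There was no library from mice without DSS and no Cre-only control, and the day of sampling was not given. The label WT-n or VILCRE-n was taken as replicate n, and nothing in the labels says whether each library came from 1 mouse or from pooled mice, so the p-values measure only the spread between these libraries.

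In the colon, sodium absorption draws water after it. The electroneutral route uses sodium/proton exchangers of the apical membrane, NHE2 (Slc9a2) and NHE3 (Slc9a3), working beside a chloride/bicarbonate exchanger. The electrogenic route, most active in the distal colon, uses the epithelial sodium channel ENaC, which is assembled from an alpha, a beta and a gamma subunit (Scnn1a, Scnn1b, Scnn1g). Aldosterone and glucocorticoids raise ENaC activity, in part through Sgk1, a corticosteroid-induced kinase that restrains the ubiquitin ligase Nedd4-2 and so keeps ENaC at the cell surface. Sodium then leaves the cell through the basolateral sodium pump. Among aquaporins, Aqp8 and Aqp4 are channels of colonic surface epithelium, and Aqp1 is best known from red cells, endothelium and kidney tubules.

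Libraries held between 15439123 and 20350539 counted reads, so that 3 counts in a library corresponded to between 0.146 and 0.242 CPM (counts per 1000000 reads, with library sizes scaled by TMM factors). Epithelial markers such as Epcam and Vil1 summed to between 14559 and 24583 CPM, while 8 endothelial markers summed to between 1.79 and 5.50 CPM and 6 glial and neuronal markers to between 0.610 and 1.37 CPM. The posterior Hox genes Hoxa13, Hoxb13 and Hoxd10 to Hoxd13, which mark the distal gut, summed to 390 to 887 CPM, and 9 markers of small intestine to 65.2 to 232 CPM. For Nsd2 itself, replicates 1, 2 and 3 gave 47.9, 51.2 and 24.6 CPM in the control group and 24.2, 10.4 and 20.8 CPM in Nsd2 Vil-KO (log2 fold change -1.16, SE 0.39; adjusted p = 0.992, edgeR quasi-likelihood test), with the lowest control nearly touching the highest knockout. Nsd2 f/f replicate 3 and Nsd2 Vil-KO replicate 2 stood apart from the rest: their mean Spearman correlation with the other libraries was 0.937 and 0.927, against 0.959 to 0.964 elsewhere. They were also the only libraries with more than 5 Xist reads (4296 and 3684), and the mitochondrial share of counts was 19.6% in the first and 5.51% to 9.13% in the other 5. The members' fold changes were therefore also fitted without them.

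Upstream sequence is shown for Sgk1, a gene known to be induced through glucocorticoid response elements, for the ENaC genes Scnn1b and Scnn1g, whose levels had the highest correlations with Sgk1 among the members over the 6 libraries, and for Aqp8 and Slc9a3 as a channel and an exchanger beside them. RefSeq start sites (GRCm38.p6) were used for 6 of the 9 members, Aqp1, Aqp8, Scnn1b, Scnn1g, Slc9a3 and Sgk1, the last with 6 windows. Aqp4, Scnn1a and Slc9a2 were not matched. Each window is the 250 bases before a start, on the plus strand and written 5′ to 3′. Capitals mark the glucocorticoid half-site TGTTCT (or AGAACA), the GC box GGGCGG (or CCGCCC) and the TATA box TATAAA (or TTTATA), searched on both strands. Of 32851 such windows genome-wide, 16.1% held the half-site, 32.7% the GC box and 12.4% the TATA box.
Sgk1, window 5 of 6, chr10:21993640-21993889: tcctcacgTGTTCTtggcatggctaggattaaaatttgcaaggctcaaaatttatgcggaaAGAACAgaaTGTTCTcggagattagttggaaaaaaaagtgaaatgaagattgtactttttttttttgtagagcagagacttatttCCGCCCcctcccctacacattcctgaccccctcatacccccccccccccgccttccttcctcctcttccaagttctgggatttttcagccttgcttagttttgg
Scnn1b, chr7:121864788-121865037: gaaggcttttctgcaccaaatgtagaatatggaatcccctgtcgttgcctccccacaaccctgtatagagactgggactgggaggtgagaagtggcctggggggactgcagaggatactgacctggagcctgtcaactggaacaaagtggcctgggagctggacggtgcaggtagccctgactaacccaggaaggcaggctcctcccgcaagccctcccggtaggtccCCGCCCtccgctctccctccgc
Scnn1g, chr7:121734229-121734478: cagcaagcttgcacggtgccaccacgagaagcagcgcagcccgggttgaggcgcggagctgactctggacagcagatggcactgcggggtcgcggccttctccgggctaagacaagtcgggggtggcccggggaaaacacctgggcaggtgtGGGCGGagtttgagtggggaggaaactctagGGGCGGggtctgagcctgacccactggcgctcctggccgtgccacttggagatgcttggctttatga
Aqp8, chr7:123462044-123462293: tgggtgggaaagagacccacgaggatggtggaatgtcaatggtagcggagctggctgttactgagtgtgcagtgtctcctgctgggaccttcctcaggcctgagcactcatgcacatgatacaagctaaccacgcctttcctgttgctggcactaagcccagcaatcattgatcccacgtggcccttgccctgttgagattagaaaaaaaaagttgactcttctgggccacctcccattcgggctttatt
Slc9a3, chr13:74121163-74121412: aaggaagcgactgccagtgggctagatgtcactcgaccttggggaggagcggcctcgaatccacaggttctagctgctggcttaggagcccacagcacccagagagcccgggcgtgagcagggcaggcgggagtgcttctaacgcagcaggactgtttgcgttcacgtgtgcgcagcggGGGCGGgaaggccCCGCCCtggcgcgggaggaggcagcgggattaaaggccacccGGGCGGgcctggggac
Of the 6 Sgk1 windows, 3 held a half-site, and the one shown was chosen because it alone held an inverted repeat of it. In that window, half-sites began 242, 189 and 180 bases before the start, and the last pair formed the inverted repeat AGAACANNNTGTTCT with its 3-base gap. A GC box lay 104 bases before the start. Only 3 of the 32851 windows (0.00913%) held that repeat. At Sgk1 it lay 965 bases before the last of the 6 Sgk1 starts, at chr10:21993701-21993715. The Slc9a3 window held GC boxes 71, 58 and 16 bases before the start, Scnn1g held them at 98 and 67, and Scnn1b held one at 22. None of the searched motifs was in the Aqp8 window. A match is a description of letters and not a binding site, and a window without one says nothing of sites elsewhere.

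Per length, Aqp8 was the most abundant member and Scnn1g the least. Levels between genes were compared as TPM (reads per base of exon, scaled to a sum of 1000000 per library), using the union of each gene's exons in GENCODE vM21. Over the 6 libraries the mean TPM was 457 ± 343 for Aqp8, 317 ± 220 for Aqp4, 98.7 ± 33.7 for Slc9a3, 86.8 ± 16.6 for Scnn1a and 83.6 ± 109 for Sgk1 (SD, n = 6). It was 65.0 ± 20.2 for Slc9a2, 33.6 ± 16.4 for Aqp1, 16.5 ± 14.4 for Scnn1b and 6.01 ± 5.15 for Scnn1g. The ranges of each pair of neighbours in this order overlapped across libraries. With the mean transcript length in place of the exon union, Aqp4 came first (664 TPM) and Aqp8 next (281 TPM), Sgk1 moved up to the third place (158 TPM), and Scnn1a moved down to the sixth (71.1 TPM), while Aqp1, Scnn1b and Scnn1g kept the last places. The members differed widely in how far they varied. The highest library exceeded the lowest in TPM by 38.4 times for Sgk1 and by 28.7 times for Aqp8, but by only 1.73 times for Scnn1a and 2.34 times for Slc9a3.

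In edgeR with all 6 libraries, no member passed the threshold between genotypes. At an adjusted p below 0.05, edgeR called 0 of 9 members and 0 of 14650 genes tested (0.0%), and DESeq2 called 0 members and 4 genes. DESeq2 gave no p-value for Scnn1g, so its counts of members leave that gene out. A screening criterion after the study's (fold change above 1.2 and p below 0.05, read here as unadjusted) was met by 482 genes (3.29%), 241 of them higher in Nsd2 Vil-KO (1.65%) and 241 lower (1.65%), and by 0 of 9 members in edgeR. With the same libraries it was met in DESeq2 by 633 genes (4.32%) and 1 member, Aqp8, and in limma-voom with quality weights by 1440 genes (9.83%) and 3 members, Aqp4, Scnn1g and Slc9a3. CPM did not overlap between genotypes for 1451 genes (9.90%), with 763 higher (5.21%) and 688 lower (4.70%), and for 0 of 9 members. Fold changes of the members were above 0 for 7 and below 0 for 2, with a median log2 value of 0.35 against 0.0012 over all genes tested. That median was -0.63 without Nsd2 Vil-KO replicate 2, -0.099 without the pair that stood apart and -0.37 in limma-voom. The adjusted p-values of the members lay between 0.992 and 0.999. An exact permutation test of 3 libraries against 3 cannot give a p below 0.1, and no single member came below 0.2 in it.

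**Figure D1:**
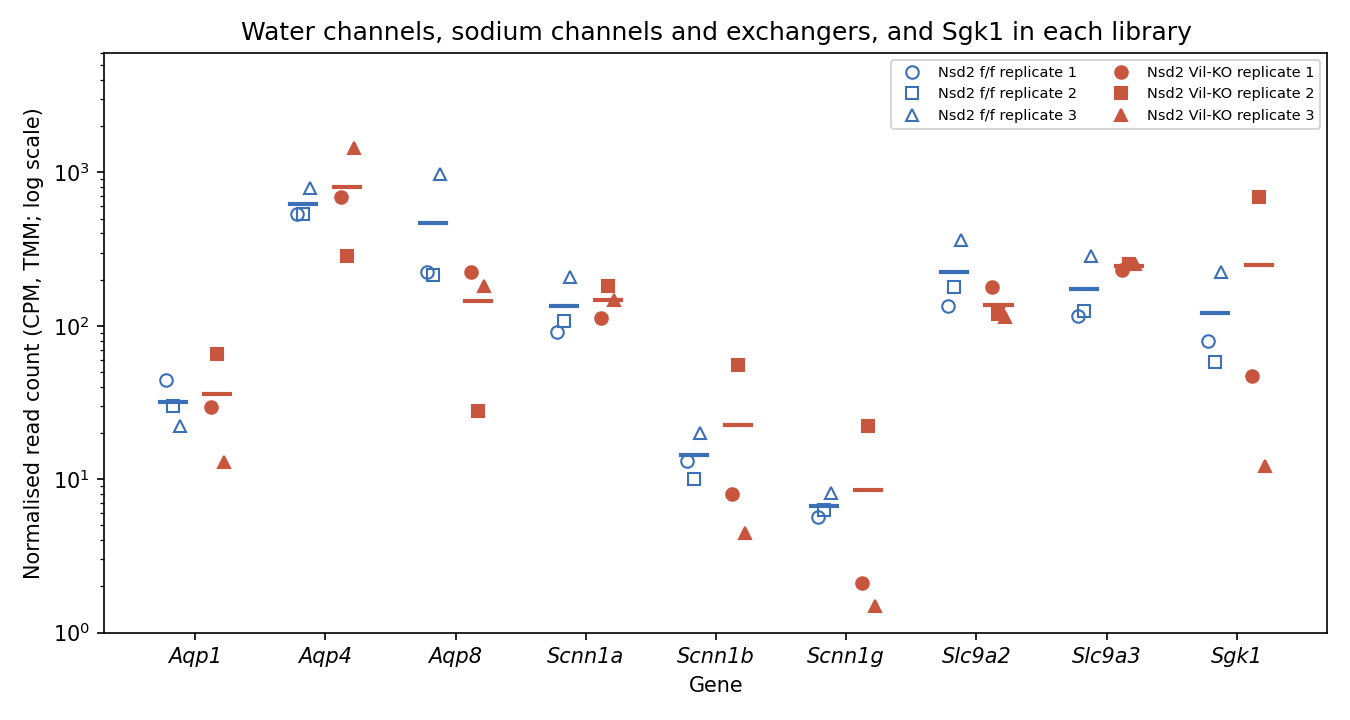
Normalised read counts (CPM, log scale) of the 9 members, with 1 symbol per library, open blue for Nsd2 f/f and filled red for Nsd2 Vil-KO, and bars at group means. Nsd2 Vil-KO replicate 2 (filled squares) is the highest library for Aqp1, Scnn1b, Scnn1g and Sgk1 and the lowest for Aqp4 and Aqp8, and Nsd2 f/f replicate 3 (open triangles) is the highest for Aqp8, Scnn1a, Slc9a2 and Slc9a3.

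Among the water channels, Aqp8 showed the largest difference. Aqp8 (ENSMUSG00000030762, chr7:123462291-123468004 in GRCm38) was counted at 223, 216 and 973 CPM in replicates 1, 2 and 3 of Nsd2 f/f and at 225, 27.9 and 182 CPM in those of Nsd2 Vil-KO. Replicate 1 of both genotypes was nearly equal, and the difference lay in the high Nsd2 f/f replicate 3 and the low Nsd2 Vil-KO replicate 2. The means were 471 ± 435 and 145 ± 104 CPM (SD, n = 3 each), 3.25-fold lower in Nsd2 Vil-KO in the fit (log2 fold change -1.70, SE 0.87; unadjusted p = 0.0903, adjusted p = 0.992, edgeR). Without both of those libraries the log2 fold change was -0.10. In limma-voom with quality weights, which kept them but weighted each library by its estimated quality, it was -0.37 (unadjusted p = 0.382). Of 12 surface colonocyte markers, 9 were highest in Nsd2 f/f replicate 3 as well (23.7% of all genes tested were), and 6 were lowest in Nsd2 Vil-KO replicate 2 (29.2% of all genes). Slc26a3, the chloride/bicarbonate exchanger, was at 1425 CPM and Car4, a carbonic anhydrase, at 1499 CPM in Nsd2 f/f replicate 3, against 229 to 686 and 373 to 685 CPM elsewhere. Tmigd1, by contrast, was highest in Nsd2 Vil-KO replicate 2 (44.5 CPM). Between genotypes, 9 of the 12 had log2 fold changes below 0 (49.9% of all genes tested did). The screening criterion was passed as lower by 1 of them (1.65% of all genes), Slc37a2 at -4.33, whose CPM ran from 0.333 to 479. It did not pass without Nsd2 f/f replicate 3 (-1.69), without any 1 of the Nsd2 Vil-KO libraries (-5.14 to -3.77) or without the pair that stood apart (-1.11). Leaving out Nsd2 f/f replicate 3 took the list's median from -0.39 to 0.20. That median was 0.21 in limma-voom, with 2 genes higher and 0 lower by the criterion. Without the pair that stood apart it was 0.40, with 3 higher and 0 lower. By the same criterion, 682 of 14650 genes tested were higher and 758 lower in limma-voom. Without the pair, 841 of 15030 genes were higher and 805 lower. The part of surface colonocytes in the Aqp8 values was not tested, and in such bulk samples fewer cells of a type and less RNA per cell cannot be told apart.

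Aqp4 ran the other way in part. This gene (ENSMUSG00000024411, minus strand of chr18:15389496-15410982) encodes a water channel of basolateral membranes. Its level was 532, 532 and 794 CPM in Nsd2 f/f and 689, 284 and 1450.4 CPM in Nsd2 Vil-KO. The extremes of all 6 libraries, in both directions, were knockout libraries. Means of 619 ± 151 and 808 ± 592 CPM gave a log2 fold change of 0.38 (SE 0.55; adjusted p = 0.993, edgeR), which was -0.35 without Nsd2 Vil-KO replicate 3 and 1.01 in the 4 libraries without the pair that stood apart. Aqp4 is also known from glia, whose defining marker Gfap was at most 0.388 CPM in these libraries, and the part of other cells in the Aqp4 values was not tested.

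Aqp1 (ENSMUSG00000004655, chr6:55336432-55348555) stood at 44.0, 29.8 and 22.3 CPM in Nsd2 f/f and at 29.3, 65.8 and 13.0 CPM in Nsd2 Vil-KO. Both the highest and the lowest library were again knockouts. The log2 fold change was 0.17 (SE 0.55; adjusted p = 0.999, edgeR), and it was -0.60 without Nsd2 Vil-KO replicate 2 and -0.03 without Nsd2 f/f replicate 3. The 8 endothelial markers summed to 5.50, 4.20 and 3.39 CPM in Nsd2 f/f and to 4.14, 2.44 and 1.79 CPM in Nsd2 Vil-KO. These sums had the same order as Aqp1 in 5 of the libraries and were low in Nsd2 Vil-KO replicate 2, the library with the most Aqp1. Cdh5, a defining endothelial gene, was at most 0.297 CPM, and the part of endothelial RNA in the Aqp1 values was not tested. Of the 3 endothelial markers tested, 1 passed the screening criterion as lower, as 1.65% of all genes tested did. This was Pecam1 (log2 fold change -1.33, unadjusted p = 0.0462, adjusted p = 0.992, edgeR), a call lost when any library but Nsd2 Vil-KO replicate 1 was left out (-1.05 without Nsd2 Vil-KO replicate 2). Erythroid markers were highest in Nsd2 f/f replicate 1 (21.6 CPM in sum) and between 1.36 and 7.92 CPM elsewhere. The ranks of Aqp1 and Aqp4 across libraries were nearly opposite, with a Pearson correlation of log2 CPM of -0.97 over 6 libraries and -0.95 over the 4 left without the pair that stood apart, a description with no test.

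Other aquaporins were scarce. Of 9 further family members, only Aqp11, an intracellular aquaporin, had enough reads to be tested, at 10.9, 13.8 and 27.5 CPM in Nsd2 f/f and 13.5, 22.6 and 10.2 CPM in Nsd2 Vil-KO (log2 fold change -0.17). Aqp2 and Aqp6 had no read in any library, which allows levels up to the limit of 3 counts. Aqp3, a water and glycerol channel, did not exceed 0.293 CPM.

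Of the ENaC subunits, alpha was the most abundant per length. Scnn1a (ENSMUSG00000030340, chr6:125320659-125344943) had 90.9, 107 and 208 CPM in Nsd2 f/f and 112, 183 and 147 CPM in Nsd2 Vil-KO. The genotypes overlapped almost entirely and the log2 fold change was 0.12 (SE 0.35; adjusted p = 0.996, edgeR). Leaving out Nsd2 f/f replicate 1 or 2, or Nsd2 Vil-KO replicate 2, turned its sign (-0.10, -0.02 and -0.06).

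The beta and gamma subunit genes lie next to each other on chromosome 7, with 96563 bases between the end of Scnn1g (ENSMUSG00000000216, chr7:121734479-121768475) and the start of Scnn1b (ENSMUSG00000030873, chr7:121865038-121918514). Scnn1b was at 13.2, 9.99 and 20.04 CPM in Nsd2 f/f and at 7.995, 55.4 and 4.44 CPM in Nsd2 Vil-KO. Scnn1g was at 5.70, 6.32 and 8.08 CPM in Nsd2 f/f and at 2.10, 22.1 and 1.48 CPM in Nsd2 Vil-KO, the last from 29 reads. For both genes, knockout replicate 2 lay above every control and knockout replicates 1 and 3 lay below every control. The fitted log2 fold changes were 0.65 (SE 0.88) for Scnn1b and 0.35 (SE 0.95) for Scnn1g, with adjusted p-values of 0.993 and 0.996 in edgeR. Without Nsd2 Vil-KO replicate 2 both turned, to -1.203 and -1.89, and met the screening criterion (adjusted p = 0.760 for both). Of 15139 genes, 5.08% met it in that fit.

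Sgk1 (ENSMUSG00000019970, chr10:21882184-21999903) varied more than any other member. It was counted at 79.5, 57.7 and 224 CPM in Nsd2 f/f and at 46.9, 689 and 12.2 CPM in Nsd2 Vil-KO. The knockout group again held the highest library and the 2 lowest, as for Scnn1b and Scnn1g, and its coefficient of variation was 153% against 75.1% in Nsd2 f/f. A log2 fold change of 1.05 (SE 1.29; adjusted p = 0.992, edgeR) became -2.03 without Nsd2 Vil-KO replicate 2, where its unadjusted p was 0.0527 and its adjusted p 0.760. Over the 6 libraries the Pearson correlation of log2 CPM was 0.988 for Scnn1b with Sgk1, 0.957 for Scnn1b with Scnn1g and 0.942 for Scnn1g with Sgk1, and over the 4 libraries without the pair that stood apart it was 0.981, 0.887 and 0.831. Of the 36 pairs of members these were the only 3 above 0.9 over 6 libraries, while 6 pairs exceeded it over the 4, among them Aqp1 with Sgk1 (0.988) and Aqp8 with Sgk1 (0.947, against -0.319 over 6). Such values were not rare over 6 libraries: 478 of 10562 candidate genes exceeded 0.9 with Sgk1 and 598 with Scnn1b. The fewest among the members were 42, with Slc9a3. The 3 candidates most like Sgk1 were Ctsh (0.995), Lypla2 (0.990) and Scnn1b itself. Scnn1b came closest to Lmo4 (0.996), Slc44a3 (0.994) and Pros1 (0.994), and Scnn1g to Ubl4a (0.998), Ubb-ps (0.989) and Capns1 (0.988).

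Genes of the corticosteroid response were set beside Sgk1, from a list of 12 that includes both receptors. Of these, 7 were highest in Nsd2 Vil-KO replicate 2, where 28.7% of all genes tested were highest. Fkbp5, a co-chaperone of the glucocorticoid receptor, was at 89.2, 95.4 and 234 CPM in Nsd2 f/f and at 91.0, 894 and 42.5 CPM in Nsd2 Vil-KO. Zbtb16, a corticosteroid-induced transcription factor gene, was at 27.6 CPM in that library and at 0.613 to 3.39 CPM in the other 5. Per1, a clock gene that glucocorticoids induce, was at 119 CPM there and at 18.1 to 37.8 CPM elsewhere. These 3 were chosen after their values were seen, and without that library their log2 fold changes turned from 1.30, 1.99 and 0.82 to -1.06, -1.78 and -0.41 for Fkbp5, Zbtb16 and Per1. Other genes of the list did not share the pattern: Tsc22d3, which encodes the glucocorticoid-induced leucine zipper, had 39.7 CPM in Nsd2 Vil-KO replicate 2 and 43.6, 47.0 and 64.6 CPM in Nsd2 f/f, and Dusp1 had 19.3 CPM there and 12.3 to 47.0 CPM elsewhere. Between genotypes, 0 of 12 passed the screening criterion in edgeR with all 6 libraries, with 7 log2 fold changes above 0. In the fit without Nsd2 Vil-KO replicate 2, 3 of 12 were lower by that criterion, when 2.68% of all genes were. Zbtb16 was among the 3 (unadjusted p = 0.0184, adjusted p = 0.76, edgeR). The receptor genes were Nr3c1 at 46.2 to 55.9 CPM in Nsd2 f/f and 60.4 to 61.5 CPM in Nsd2 Vil-KO (log2 fold change 0.24, adjusted p = 0.992, edgeR), and Nr3c2, the mineralocorticoid receptor, at 70.9 to 130 and 56.5 to 89.0 CPM. In the library with the most Sgk1, 8 neutrophil markers summed to 2348 CPM, against 198 to 841 CPM elsewhere, with Ly6g at 1355 CPM and Csf3r, a defining neutrophil gene, at 0.666 CPM, and the part of these cells in the Sgk1 values was not tested. With the presence of Xist (at least 100 reads) as a covariate, the log2 fold change of Sgk1 was -0.32 (adjusted p = 0.893, edgeR).

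**Figure D2:**
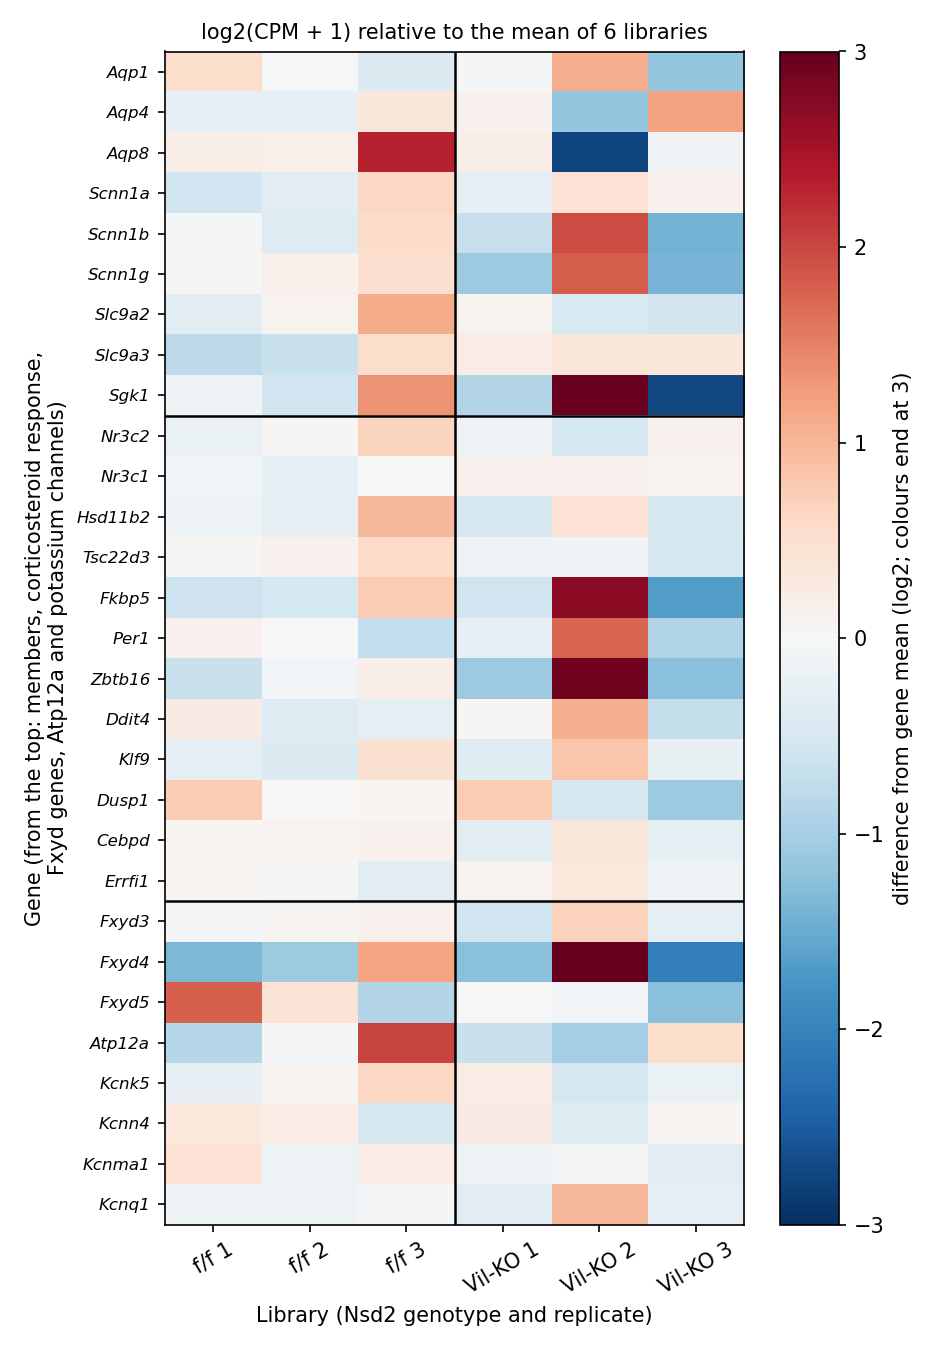
Each row is a gene and each column a library, and colour gives log2(CPM + 1) relative to the gene's mean over 6 libraries, for the 9 members, 12 corticosteroid response genes and 8 genes of the basolateral list (the Fxyd genes, Atp12a and the potassium channels). Sgk1, Fkbp5, Zbtb16 and Fxyd4 share a dark red cell at Nsd2 Vil-KO replicate 2. There Scnn1b, Scnn1g and Per1 are a lighter red and Aqp8 is dark blue.

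Among genes of basolateral sodium exit, Fxyd4 had the same high library as Sgk1. Fxyd4, a corticosteroid-induced regulatory subunit of the sodium pump in colon, was at 5.65, 7.15 and 37.6 CPM in Nsd2 f/f and at 6.19, 395 and 3.12 CPM in Nsd2 Vil-KO. Its order across libraries placed the same library first and the same last as for Sgk1. Atp12a, the colonic proton/potassium pump, was by contrast highest in Nsd2 f/f replicate 3 (856 CPM against 102 to 299). Of 12 listed genes 11 were tested, 4 were highest in Nsd2 Vil-KO replicate 2 (28.7% of all genes were), 3 in Nsd2 f/f replicate 3 and 3 in Nsd2 f/f replicate 1, and 0 passed the screening criterion in edgeR. The log2 fold change of Fxyd4 was 3.02 (SE 1.76; adjusted p = 0.992), and it was -1.83 without Nsd2 Vil-KO replicate 2 and -0.43 without the pair that stood apart.

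Among 15 regulators of ENaC, 11 had log2 fold changes above 0 (50.1% of all genes tested did) and 2 met the screening criterion (3.29% of all genes). Usp2, a deubiquitinase gene, was higher in Nsd2 Vil-KO, at 32.1, 48.9 and 35.8 CPM against 21.4, 30.8 and 23.9 CPM (log2 fold change 0.62, SE 0.24; adjusted p = 0.992, edgeR). Sgk3, a relative of Sgk1, was lower, at 0.634, 0.0555 and 0.409 CPM against 5.004, 1.42 and 1.13 CPM (log2 fold change -2.77, SE 0.85; adjusted p = 0.992, edgeR). Sgk3 had 101, 24 and 14 reads in Nsd2 f/f and 13, 1 and 8 in Nsd2 Vil-KO. Its call was lost without Nsd2 f/f replicate 1 (-1.76), and that of Usp2 without Nsd2 f/f replicate 1 or 3 or Nsd2 Vil-KO replicate 2 or 3 (0.51, 0.58, 0.42 and 0.68) and without the pair that stood apart (0.39). Nedd4l, which encodes the ligase Nedd4-2, was at 55.2 to 90.6 CPM in Nsd2 f/f and 57.1 to 74.1 CPM in Nsd2 Vil-KO (log2 fold change -0.01, SE 0.24), and Prss8, a channel-activating protease, at 52.3 to 67.3 and 44.6 to 74.1 CPM.

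The sodium/proton exchangers had fitted fold changes of opposite sign, neither past the test. Slc9a2 (ENSMUSG00000026062, chr1:40680574-40769273) was at 134, 179 and 363 CPM in Nsd2 f/f and at 178, 120 and 113 CPM in Nsd2 Vil-KO. Slc9a3 (ENSMUSG00000036123, chr13:74121457-74169442) was at 115, 125 and 284 CPM in Nsd2 f/f and at 229, 253 and 252 CPM in Nsd2 Vil-KO. The knockout libraries lay close together for Slc9a3, with a coefficient of variation of 5.50% against 54.3% in Nsd2 f/f, where replicate 3 exceeded them all. The means of Slc9a2 were 225 ± 121 and 137 ± 35.7 CPM (log2 fold change -0.71, SE 0.39; adjusted p = 0.992, edgeR), and those of Slc9a3 were 175 ± 94.8 and 245 ± 13.5 CPM (0.49, SE 0.36; adjusted p = 0.992).

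Both differences depended on Nsd2 f/f replicate 3. Without that library the log2 fold change of Slc9a2 was -0.19, and without Nsd2 Vil-KO replicate 2 as well it was -0.089. Without Nsd2 f/f replicate 1 it was -0.98 and met the screening criterion (unadjusted p = 0.0381, adjusted p = 0.999, edgeR). Of 14972 genes, 3.12% met it in that fit. For Slc9a3, without Nsd2 f/f replicate 3 the log2 fold change was 1.03 (unadjusted p = 0.00137, adjusted p = 1 in edgeR), and without Nsd2 Vil-KO replicate 2 as well it was 1.015, with an unadjusted p of 4.28e-05 and an adjusted p of 0.119 in edgeR. In TPM its genotypes did not overlap, at 62.1, 64.8 and 91.1 against 130, 98.7 and 145, but with mitochondrial genes left out of the total Nsd2 f/f replicate 3 reached 138 TPM and passed Nsd2 Vil-KO replicate 2 at 120 TPM. The genes most like Slc9a3 over the 6 libraries were Vps51 (0.982), Mcoln1 (0.963) and Ermp1 (0.961). Scnn1a had the same order of libraries as Slc9a3, with a Spearman correlation of 1 and a Pearson correlation of 0.848 (n = 6 libraries, no test).

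Exchanger partners showed small fold changes, between -0.33 and 0.26 on the log2 scale. Of 14 genes, among them other NHE isoforms and the scaffold and anchoring proteins of NHE3, 11 were tested, 6 log2 fold changes were above 0, the median was 0.04 and 0 passed the screening criterion in edgeR. Slc9a3r1, which encodes the scaffold NHERF1, was at 203, 249 and 380 CPM in Nsd2 f/f and at 271, 152 and 239 CPM in Nsd2 Vil-KO. Slc9a8, an exchanger of the trans-Golgi and apical membrane, was at 60.7 to 66.7 and 64.6 to 76.6 CPM.

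**Figure D3:**
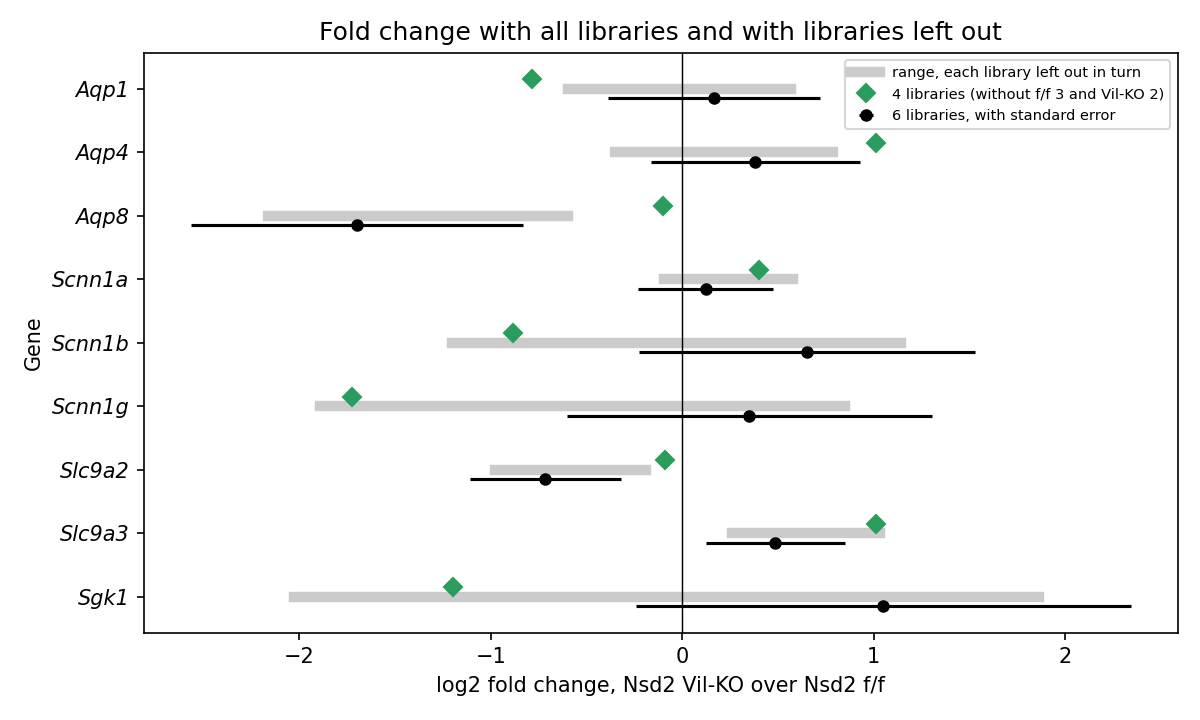
log2 fold change of each member, Nsd2 Vil-KO over Nsd2 f/f, from edgeR. Black points with standard errors use all 6 libraries, grey bars span the fits with each library left out in turn, and green diamonds leave out Nsd2 f/f replicate 3 and Nsd2 Vil-KO replicate 2, which moves Sgk1 from 1.05 to -1.197 and Aqp8 from -1.70 to -0.10.

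In the 4 libraries left without the pair that stood apart (2 against 2), 4 of 9 members met the screening criterion, when 11.0% of 15030 genes did. Slc9a3 and Scnn1a were higher in Nsd2 Vil-KO (log2 fold changes 1.015 and 0.40) and Scnn1b and Scnn1g lower (-0.89 and -1.73), with adjusted p-values of 0.119, 0.432, 0.414 and 0.283 in edgeR. No gene reached an adjusted p below 0.05. In the same fit 4 of 11 exchanger partners were higher, 2 of 15 ENaC regulators were higher and 2 lower, 1 of 12 corticosteroid response genes was higher and 4 lower, and 2 of 11 basolateral genes were lower. Of 12 surface colonocyte markers, 3 were higher and 0 lower, with a median log2 fold change of 0.40. Lower were 5 of 7 goblet, 3 of 7 macrophage, 1 of 5 neutrophil, 1 of 5 crypt base and 1 of 6 B and plasma cell markers. Of all 15030 genes in that fit, 841 were higher and 805 (5.36%) were lower. The part of these cells in the members' values was not tested. The pair left out also holds both libraries with more than 5 Xist reads, so that the mice's Xist status and whatever else sets these libraries apart cannot be told apart.

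Ratios of 2 members within a library need no scaling between libraries. Of the 36 pairs, 6 ratios of reads per base of exon did not overlap between genotypes (16.7%), against 10.4% of 75983628 pairs of genes with at least 10 counts in each library. The 6 share members and are not independent, and for each the exact permutation test gave p = 0.1, the smallest it can give with n = 3 per group. Slc9a3 relative to Slc9a2 was 1.09, 0.888 and 0.994 in Nsd2 f/f and 1.63, 2.68 and 2.83 in Nsd2 Vil-KO, with geometric means of 0.986 and 2.31. Per base of the exon union, the knockout libraries thus held more Slc9a3 than Slc9a2 reads, and the controls about equal amounts. The level of each ratio depends on the lengths used, while its comparison between genotypes does not. For Slc9a3 and Slc9a2 the exon unions were 5504 and 6984 bases, and the mean transcript lengths 2693.8 and 2794.0 bases. The ratios include the pair of libraries that stood apart. Aqp4 relative to Aqp8 was 0.605, 0.625 and 0.207 in Nsd2 f/f and 0.778, 2.58 and 2.02 in Nsd2 Vil-KO. Aqp8 relative to Slc9a3 was 6.75, 6.02 and 11.9 in Nsd2 f/f and 3.41, 0.384 and 2.51 in Nsd2 Vil-KO. Aqp8 relative to Scnn1a was 6.42, 5.28 and 12.2 in Nsd2 f/f and 5.25, 0.399 and 3.225 in Nsd2 Vil-KO (geometric means 7.45 and 1.89). Its closest values, 5.28 and 5.25, almost touched. Scnn1b relative to Scnn1g was 2.63, 1.79 and 2.82 in Nsd2 f/f and 4.33, 2.85 and 3.41 in Nsd2 Vil-KO, with 2.82 and 2.85 almost touching. Scnn1a relative to Slc9a3 was 1.05, 1.14 and 0.977 in Nsd2 f/f and 0.650, 0.963 and 0.778 in Nsd2 Vil-KO (geometric means 1.05 and 0.787). Here 0.977 and 0.963 lay close together. The remaining 30 ratios overlapped, Scnn1b to Sgk1 (0.167 to 0.322 and 0.150 to 0.681) among them.

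**Figure D4:**
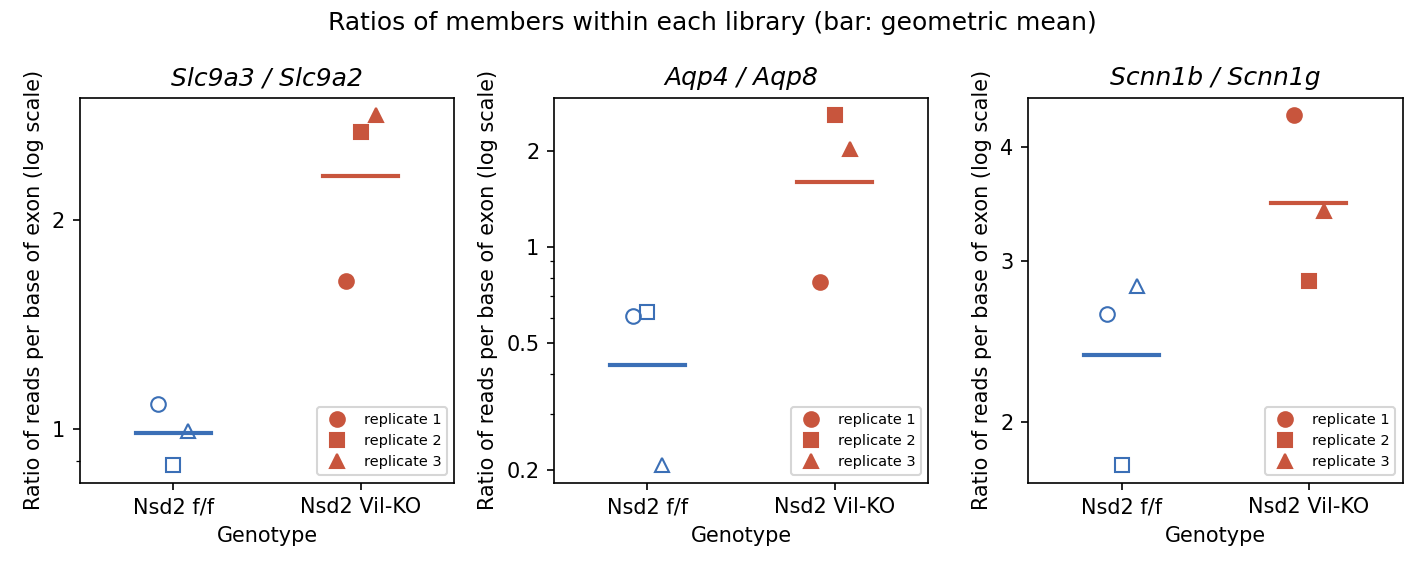
Ratios of reads per base of exon between 2 members within each library (log scale), with 1 symbol per library and bars at geometric means, for Slc9a3 over Slc9a2, Aqp4 over Aqp8 and Scnn1b over Scnn1g. All Nsd2 Vil-KO ratios (filled red) lie above all Nsd2 f/f ratios (open blue) in each panel, with the narrowest gap for Scnn1b over Scnn1g.

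By library, 8 of 9 members had their highest CPM in Nsd2 f/f replicate 3 (4 members) or Nsd2 Vil-KO replicate 2 (4 members), where 52.4% of all genes tested had theirs. Aqp4 was the exception. The lowest CPM fell in Nsd2 Vil-KO replicate 3 for 5 members, Aqp1, Scnn1b, Scnn1g, Slc9a2 and Sgk1, where 12.2% of genes had theirs. For the remaining members the lowest CPM fell in Nsd2 Vil-KO replicate 2 (2 members, 29.2% of genes) or Nsd2 f/f replicate 1 (2 members, 8.85% of genes). The plot of CPM by library shows these values.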

How the data were processed

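The authors deposited whole-number read counts per Ensembl gene for 6 libraries. Their methods describe polyA selection, directional paired-end libraries, trimming and alignment to GRCm38 with HISAT2 (mm10 in the submitters' notes). They give StringTie for their FPKM, which were not used here, while the program behind the deposited counts, and whether it used strand, is not given in the sources used here, and labels and methods name different kits. No member shares exon bases with another gene in GENCODE vM21 (Nsd2 shares 60 with the antisense gene Nelfa), where 99.5% of listed genes were found.

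Counts were tested in R 4.3.3 with edgeR 4.0.16 (TMM, filterByExpr by genotype, robust quasi-likelihood fit, no covariate, Benjamini-Hochberg adjustment over 14650 genes). Alternatives used DESeq2 1.42.0 and limma 3.58.1. The test was checked on simulated data. Figures were drawn with matplotlib 3.10.9. TPM used exon-union lengths, and limits of 3 counts cover counting error only. Members and gene lists were chosen with earlier results of these data known. The rule for named genes took all 9 members, list genes past the screening criterion or on which a result turns, and Nsd2. The 3 genes most correlated with a member (mean of at least 5 CPM) are named for Sgk1, Scnn1b, Scnn1g and Slc9a3 only. The values of 1 gene counted in a list are not reported here. Sequences came from RefSeq tables. Ratios and TPM without mitochondrial genes were added after seeing the data.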

Additional observations from a re-analysis of the deposited data

How the results depend on the processing

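Log2 fold changes of the 9 members were refitted under 17 alternatives, and Aqp8, Slc9a2 and Slc9a3 kept their sign in each. That of Aqp8 was smaller in limma-voom (-0.37) and in the 4 libraries (-0.099). Signs of Aqp1, Scnn1b, Scnn1g and Sgk1 turned with limma-voom quality weights (-0.81, -0.89, -1.68 and -1.48), with limma-trend (-0.060, -0.082, -0.44 and -0.43), with the replicate block (-0.084, -0.23, -0.73 and -0.61), in the 4 libraries (-0.79, -0.89, -1.73 and -1.197) and with Xist presence as covariate (-0.050, -0.11, -0.63 and -0.32). The cause was not tested. Leaving out each library in turn gave -0.60 to 0.57 for Aqp1, -0.35 to 0.79 for Aqp4, -2.16 to -0.60 for Aqp8, -0.10 to 0.58 for Scnn1a, -1.203 to 1.14 for Scnn1b, -1.89 to 0.85 for Scnn1g, -0.98 to -0.19 for Slc9a2, 0.26 to 1.03 for Slc9a3 and -2.03 to 1.87 for Sgk1. The screening criterion was newly met by Aqp8 in DESeq2 (-1.71) and with the replicate block (-1.84), by Aqp4 (0.86), Slc9a3 (0.93) and Scnn1g in limma-voom, by Scnn1a (0.40), Slc9a3 (1.015), Scnn1b and Scnn1g in the 4 libraries, by Slc9a2 without Nsd2 f/f replicate 1, by Slc9a3 without Nsd2 f/f replicate 3, and by Scnn1b and Scnn1g without Nsd2 Vil-KO replicate 2. Members past it numbered 1 in DESeq2, 3 in limma-voom, 1 with the block, 4 in the 4 libraries and 0 to 2 with a library left out. Genes past it numbered 482 in the reported fit, 861 without a filter, 1440 in limma-voom, 303 with the block, 1646 in the 4 libraries, 1145 with the covariate and 323 to 769 with a library left out, and DESeq2 called 4 genes at an adjusted p below 0.05. Same-numbered libraries did not deviate together (correlations 0.322, -0.35 and -0.108), so the numbers were not taken as pairs. The biological coefficient of variation was 41.2%, and each member's log2 fold change lay less than 2 standard errors from 0. Scnn1g rests on as few as 29 reads in a library.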

Other observations

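Goblet cell genes were measured beside the absorptive ones. All 7 goblet markers tested had log2 fold changes below 0 (49.9% of all genes tested did), with a median of -0.57, and 1 of them, Clca1, passed the screening criterion as lower, as 1.65% of all genes did (886, 958 and 2281 CPM in Nsd2 f/f replicates 1 to 3 against 515, 148 and 658 CPM in Nsd2 Vil-KO, log2 fold change -1.64, adjusted p = 0.992 in edgeR). Without Nsd2 f/f replicate 3 it was -1.06 and did not pass, nor did it without Nsd2 Vil-KO replicate 1 (-1.77). Of the 7 markers, 3 were lower by the same criterion without Nsd2 Vil-KO replicate 2 (2.68% of all genes in that fit), 4 in limma-voom (5.17%) and 5 in the 4 libraries without both that stood apart (5.36%). Of 5 crypt base markers tested, 5 were below 0 and 0 passed (median -0.44), but the median was 0.058 without Nsd2 Vil-KO replicate 2, in which Lgr5 was at 0.111 CPM against 7.11 to 14.9 CPM elsewhere. Fibroblast markers summed to 272, 65.4 and 24.7 CPM in Nsd2 f/f and to 78.1, 5.82 and 22.3 CPM in Nsd2 Vil-KO, and macrophage markers to 211, 66.1 and 9.37 CPM and to 77.1, 17.9 and 29.1 CPM. Both were highest in Nsd2 f/f replicate 1, the library with the highest erythroid sum, and none of the 9 members was highest there.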
